A study of Mus musculus with 11 samples.

Results

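The genes described here are 9 components and receptors of the complement system, C1qa, C1qb, C1qc, C1s, C4b, C2, C3, Cfb and C3ar1, out of 21759 gene symbols measured on arrays in mouse tibialis anterior (TA) muscle. They were chosen by symbol, with earlier results of these data known. Each had 1 probe set, the group of array probes that reads a gene. All 9 passed the minimum mean signal of 30 in at least 1 group that a probe set needed to be tested. The 11 mice were male. They were 3 C57 mice (wildtype, strain C57/B10, untreated), 4 *mdx* mice (C57/B10 background, untreated) and 4 *mdx* mice given Pip6e-PMO once, at 12.5 mg/kg into a tail vein, when 12 weeks old. Every TA was taken at 14 weeks of age. The *mdx* mouse carries a mutation of Dmd, the dystrophin gene, in all its cells and is a model of Duchenne muscular dystrophy. Pip6e-PMO is a morpholino antisense oligonucleotide joined to a cell-penetrating peptide, and it makes splicing leave out the mutated exon so that dystrophin can be made. The untreated *mdx* mice were labelled as having no treatment, so the comparison with them includes the injection itself.

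Complement is a cascade of plasma proteins that marks targets and calls in immune cells. In the classical pathway C1q binds a target, the proteases C1r and C1s are activated on it, and C1s cleaves C4 and C2 to build an enzyme that cleaves C3; in the alternative pathway factor B takes the place of C2. Fragments of C3 coat the target, the small fragment C3a acts on the receptor C3ar1, and a terminal set of proteins can form pores in membranes. Most circulating components come from the liver, whereas C1q is made largely by macrophages and related myeloid cells, which enter dystrophic muscle in numbers.

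Values are log2 of the normalized array signal, so a difference of 1 is a doubling, and levels are compared between mice for the same gene only. The median intensity of the arrays ranged from 27.5 to 28.6, and the highest correlation of an array with any other ranged from 0.983, for treated mouse T2, to 0.994. T2 also stood apart from T1, T3 and T4 at several of the genes below, so results on treatment are given with and without it. Leaving T2 out thus rests on the values themselves, and calls gained without it are not a separate test. In the paper, efficacy was lowest in the treated sample it calls T2, by RT-qPCR of exon skipping and by mass spectrometry of dystrophin. Western blot values were not significantly correlated with these. The gene-level probe set of Dmd read between 5.77 and 5.87 in the C57 mice, between 4.60 and 5.82 in the *mdx* mice and between 5.51 and 6.34 after treatment. It does not separate a transcript with the mutated exon from one without it. None of 10 skeletal muscle fibre markers was called in any comparison by limma (0, 0 and 1 at an unadjusted p under 0.05 in *mdx* against C57, treated against *mdx* and treated against C57). These 10 markers averaged between 12.70 and 12.80 in every mouse, and whether signals this high can still show a change was not tested. All 8 liver markers were below the minimum signal in every group. The labels give each array its own mouse, so p-values measure the spread between mice, and the number of mice limits the precision.

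Dystrophic muscle had more RNA of most of these genes. In *mdx* against C57, 7 of the 9 genes were higher at an adjusted p under 0.05: the 3 C1q chains, C4b, C2, Cfb and C3ar1. Of all 14494 probe sets tested, 7.06% were higher by this call. The 9 genes were chosen with earlier results known, so such shares, here and below, describe the set and do not test it. The median difference of the 9 genes was 1.20, against -0.01 over all probe sets tested. The same 7 genes were higher at an unadjusted p under 0.01 with at least 1.5-fold, which 5.13% of all probe sets met, and these 7 also had every *mdx* mouse above every C57 mouse, as 13.1% of all probe sets did. C3 and C1s were not called. By the methods' t-test with adjustment the calls of C2 and C4b were lost (adjusted p = 0.123 and 0.0688), and with no minimum signal that of C4b was (adjusted p = 0.0502).

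**Figure D1:**
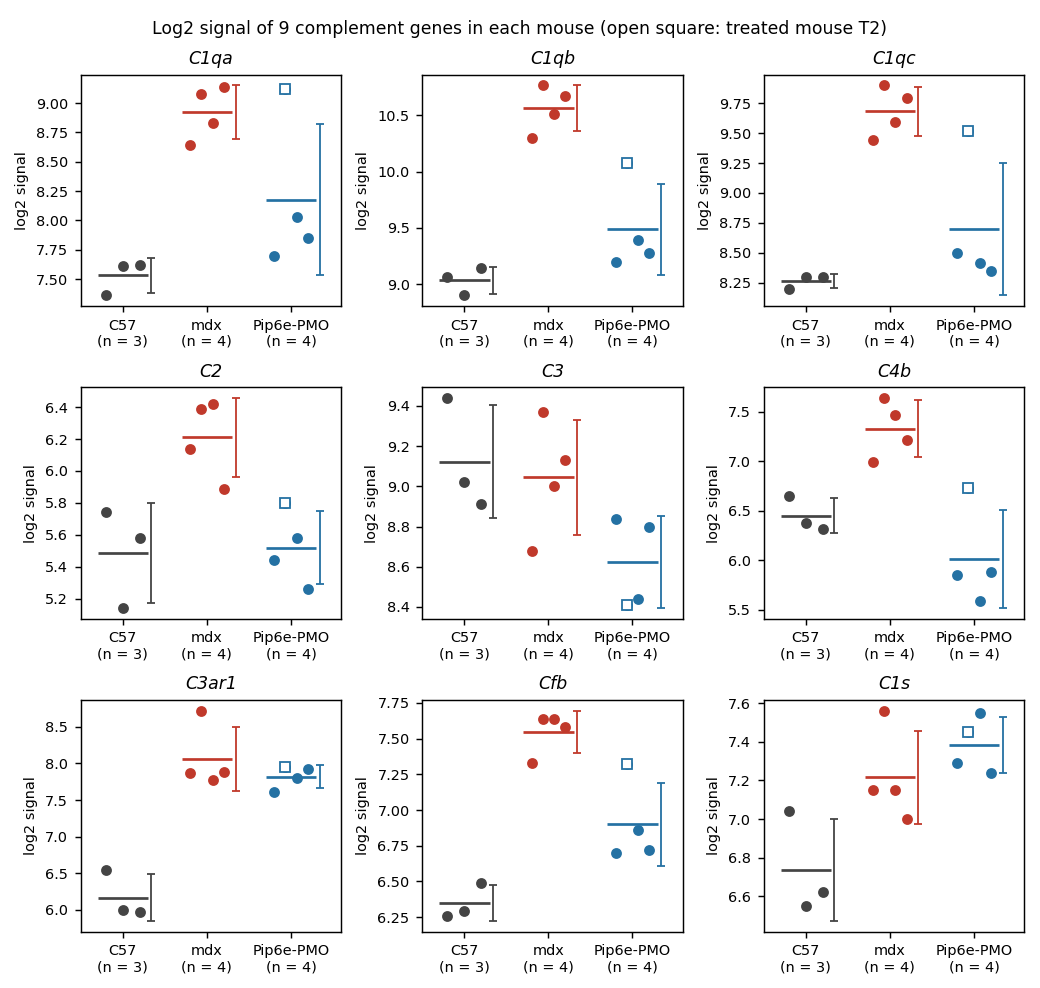
Log2 signal (vertical axes, each with its own range) of the 9 genes in the 3 C57, 4 *mdx* and 4 Pip6e-PMO-treated mice. Each point is 1 mouse, horizontal lines are group means, the error bars beside them are ± 1 SD, and the open square is T2; at C1qa T2 read 9.12, within the *mdx* range, whereas T1, T3 and T4 read 7.70 to 8.03.

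The 3 chains of C1q, the molecule that recognises targets for the classical pathway, were higher in *mdx* to a similar extent. Their genes lie next to each other on chromosome 4, with no other gene starting between them in the RefSeq annotation of GRCm38.p6. C1qa (probe set 10517517, chromosome 4, 136451832 to 136454718; the deposited positions of all probe sets name no genome build) read 7.36, 7.61 and 7.62 in C57 and 8.64, 9.08, 8.83 and 9.14 in *mdx*. The groups did not overlap, and the difference was 1.39 (SE 0.27, 2.63-fold, adjusted p = 0.0063). C1qb (probe set 10517508, chromosome 4, 136435965 to 136442092) read 9.06, 8.90 and 9.14 in C57 and 10.30, 10.77, 10.51 and 10.67 in *mdx*, a difference of 1.53 (SE 0.19, 2.89-fold, adjusted p = 0.0004). C1qc (probe set 10517513, chromosome 4, 136445717 to 136448829) read 8.20, 8.30 and 8.30 in C57 and 9.44, 9.90, 9.59 and 9.79 in *mdx*. Its groups did not overlap either, with a difference of 1.41 (SE 0.24, 2.66-fold, adjusted p = 0.00245).

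Promoter sequences are shown for the C1q chains that had one, because they moved together, and for C3 and C3ar1, which moved otherwise. RefSeq windows of GRCm38.p6, from 250 bases before to 50 bases after the start of the gene, were found for 5 of the 9 genes, and C1qa, C4b, C2 and Cfb had none. Each window is 300 bases, 5′ to 3′ on the strand of the gene, which is the minus strand for all of them, with matches to the searched motifs in capitals. They lie at chr4:136886151-136886450 for C1qb, chr4:136892865-136893164 for C1qc, chr17:57228087-57228386 for C3 and chr6:122856108-122856407 for C3ar1.
C1qb: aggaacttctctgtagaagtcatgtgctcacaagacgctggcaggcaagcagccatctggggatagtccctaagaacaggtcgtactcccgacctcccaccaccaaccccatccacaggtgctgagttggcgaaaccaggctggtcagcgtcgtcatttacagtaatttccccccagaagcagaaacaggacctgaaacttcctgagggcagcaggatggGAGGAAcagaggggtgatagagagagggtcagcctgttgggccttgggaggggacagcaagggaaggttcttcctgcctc
C1qc: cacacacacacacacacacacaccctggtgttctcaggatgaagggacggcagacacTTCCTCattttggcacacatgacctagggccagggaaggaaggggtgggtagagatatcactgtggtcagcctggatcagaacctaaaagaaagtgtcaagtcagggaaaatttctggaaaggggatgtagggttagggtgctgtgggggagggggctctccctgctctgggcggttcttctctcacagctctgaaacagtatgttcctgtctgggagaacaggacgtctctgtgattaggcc
C3: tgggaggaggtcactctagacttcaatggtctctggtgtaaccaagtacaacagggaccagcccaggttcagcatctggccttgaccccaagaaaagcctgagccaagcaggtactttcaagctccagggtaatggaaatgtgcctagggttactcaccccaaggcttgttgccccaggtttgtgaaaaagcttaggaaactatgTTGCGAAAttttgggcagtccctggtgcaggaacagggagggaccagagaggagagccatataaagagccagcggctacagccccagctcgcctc
C3ar1: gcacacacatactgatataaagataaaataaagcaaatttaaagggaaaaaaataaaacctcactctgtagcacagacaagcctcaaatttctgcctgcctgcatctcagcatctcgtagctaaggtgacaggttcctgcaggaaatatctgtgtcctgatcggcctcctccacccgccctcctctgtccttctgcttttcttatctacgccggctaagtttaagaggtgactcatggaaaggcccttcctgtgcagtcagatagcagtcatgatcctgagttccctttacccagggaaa
The motifs were chosen after the values were seen and were searched on both strands: GAGGAA, found in purine-rich sites of the myeloid factor PU.1; TTGCNNAA, found in sites of C/EBP factors; and TTCNNNGAA, found in sites of STAT factors. C1qb held GAGGAA once, with its first base 30 bases before the start of the gene, and C1qc held it once on the opposite strand, 193 bases before the start. The windows of C3 and C3ar1 did not hold it, and of all 32851 windows of this length 28.3% did. C3 held TTGCNNAA once, 45 bases before the start, a motif in 10.8% of all windows. C1s, whose windows are not shown, held TTGCNNAA on the opposite strand, 242 bases before 1 of its start sites. No window shown held TTCNNNGAA, which 8.3% of all windows held. These are matches of letters and do not show that a factor binds there.

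C1s encodes the protease of the C1 complex that cleaves C4 and C2. Its probe set (10547740, chromosome 6, 124480363 to 124586962), now named C1s1 in RefSeq, spans 106600 bases in the deposited table, against at most 24119 for the other 8 genes, so it may read more than 1 gene of the C1s and C1r kind, and each C1s value here carries that limit. It read 7.04, 6.55 and 6.62 in C57, 7.15, 7.56, 7.15 and 7.0 in *mdx* and 7.29, 7.45, 7.55 and 7.24 in treated mice. The C57 and *mdx* mice overlapped through C57 replicate 1 and *mdx* replicate 4, and their difference of 0.48 (SE 0.15) was not called (adjusted p = 0.065), but without C57 replicate 1 it was (adjusted p = 0.0252). C1s was the only one of the 9 genes with a higher mean in treated than in *mdx* mice, by 0.17 (95% interval -0.14 to 0.48), and that difference was not called (adjusted p = 0.445).

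C4b and C2 encode the substrates of C1s that together form the classical C3-cleaving enzyme. C4b (probe set 10450242, chromosome 17, 34865325 to 34880828) read 6.65, 6.38 and 6.32 in C57, 6.99, 7.64, 7.47 and 7.22 in *mdx* and 5.85, 6.73, 5.59 and 5.88 in treated mice. Every *mdx* mouse lay above every C57 mouse, by 0.88 between the means (SE 0.24, 1.84-fold, adjusted p = 0.0305), a call lost without C57 replicate 2 or 3 or *mdx* replicate 2 or 3 (adjusted p up to 0.109). C4a is a nearly identical copy of C4b, and its own probe set was below the minimum signal. Both probe sets have cross-hybridisation class 1 in the deposited table, unlike that of C1rb below. Whether signal of the one falls on the probes of the other was not tested. C2 (probe set 10450344, chromosome 17, 34999552 to 35019008) read 5.74, 5.14 and 5.58 in C57, 6.14, 6.39, 6.42 and 5.89 in *mdx* and 5.44, 5.80, 5.58 and 5.26 in treated mice. At C2 treated mice T1, T3 and T4 lay within the C57 range and T2 just above it, and all *mdx* mice lay above both groups. The difference of *mdx* from C57 was 0.72 (SE 0.18, 1.65-fold, adjusted p = 0.0192), a call lost without C57 replicate 2 or *mdx* replicate 2 or 3 (adjusted p up to 0.0997).

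C3 encodes the central component on which the pathways meet. Its probe set (10452316, chromosome 17, 57343396 to 57367514) read 9.44, 9.02 and 8.91 in C57, 8.68, 9.37, 9.0 and 9.13 in *mdx* and 8.84, 8.41, 8.44 and 8.80 in treated mice. The *mdx* mice covered most of the C57 range, and the difference of -0.08 (95% interval -0.47 to 0.31, adjusted p = 0.856) was not called. All 4 treated mice lay below all 3 C57 mice, by 0.50 between the means (adjusted p = 0.0605), a difference that was called in the fit without *mdx* replicate 1 (adjusted p = 0.0464). All 4 also lay below *mdx* replicates 2, 3 and 4, and T2 and T3 below *mdx* replicate 1 too.

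Cfb encodes factor B, the alternative pathway counterpart of C2, and the annotation of GRCm38.p6 places the start of only 1 gene, Mir6972, between the starts of Cfb and C2. Its probe set (10450325, chromosome 17, 34993319 to 34999162) read 6.26, 6.29 and 6.49 in C57, 7.33, 7.64, 7.64 and 7.58 in *mdx* and 6.70, 7.32, 6.86 and 6.72 in treated mice. The 3 groups were ordered without overlap, C57 lowest and *mdx* highest, although T2 (7.32) lay only just below *mdx* replicate 1 (7.33). The difference of *mdx* from C57 was 1.20 (SE 0.15, 2.30-fold, adjusted p = 0.000382).

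C3ar1, the receptor for C3a, is carried mainly by myeloid cells. Its probe set (10547657, chromosome 6, 122797976 to 122806088) read 6.54, 5.99 and 5.97 in C57, 7.87, 8.72, 7.78 and 7.88 in *mdx* and 7.61, 7.95, 7.80 and 7.92 in treated mice. The treated and *mdx* mice overlapped, and both groups lay above C57. The difference of *mdx* from C57, 1.90 (SE 0.22, 3.72-fold, adjusted p = 0.000228), was the largest among the 9 genes, and without *mdx* replicate 2, the highest mouse, it was 1.68.

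After Pip6e-PMO, most of the genes that were raised in *mdx* were lower, whereas the receptor C3ar1 and, with all mice in the fit, C1qa did not pass the test. In treated against *mdx* mice, 5 of the 9 genes fell at an adjusted p under 0.05: C1qb, C1qc, C4b, C2 and Cfb. Of all probe sets 3.88% fell by this call. By the methods' t-test with the same adjustment all 5 calls were lost, with adjusted p of 0.0942 to 0.134. The median difference of the 9 genes was -0.69, against 0.02 over all probe sets tested. The same 5 genes fell at an unadjusted p under 0.01 with at least 1.5-fold, as 1.62% of all probe sets did, and 4 of them had every treated mouse below every *mdx* mouse, as 6.69% of all probe sets did. The 3 comparisons share mice, the *mdx* group standing in this one and in that with C57, so they are not independent of each other.

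**Figure D2:**
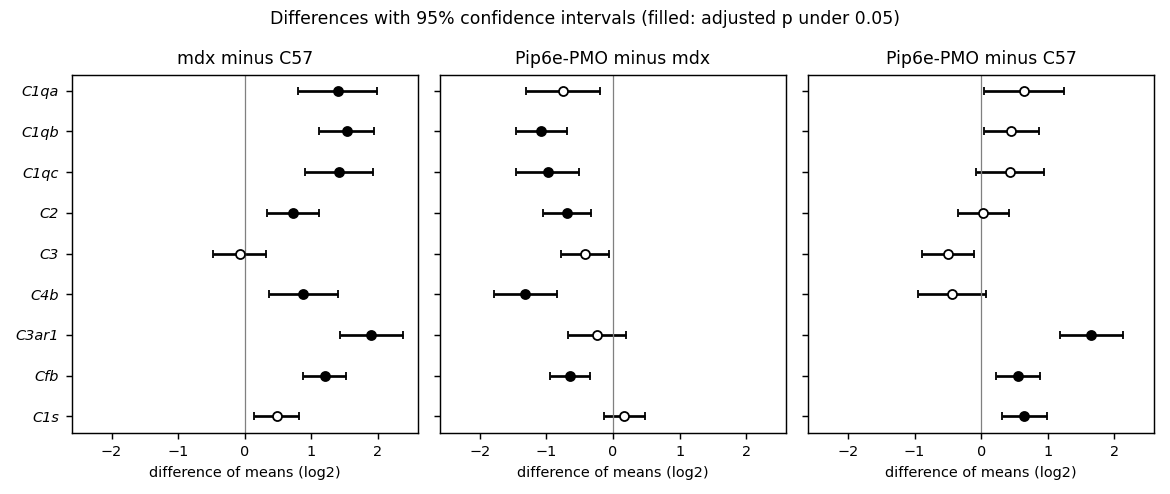
Differences of group means (log2, horizontal axes) for the 9 genes in the 3 comparisons, with 95% confidence intervals from limma. Filled points have an adjusted p under 0.05; 7 genes are filled in *mdx* minus C57, 5 in treated minus *mdx* and 3 in treated minus C57.

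C4b fell the most, by 1.32 (SE 0.22, 2.49-fold, adjusted p = 0.00925), and no treated mouse reached the lowest *mdx* mouse. C1qb fell by 1.08 (SE 0.18, 2.11-fold, adjusted p = 0.00911), from 10.30 to 10.77 in *mdx* to 9.20, 10.08, 9.39 and 9.28 in the treated mice. Both calls were kept whichever mouse was left out. C1qc fell by 0.98 (SE 0.22, 1.98-fold, adjusted p = 0.0221), with treated values of 8.50, 9.52, 8.42 and 8.35, of which T2 alone lay within the *mdx* range. C2 fell by 0.69 (SE 0.16, 1.61-fold, adjusted p = 0.0261) and Cfb by 0.65 (SE 0.14, 1.57-fold, adjusted p = 0.0196), both without overlap. At Cfb, T2 lay only just below the lowest *mdx* mouse. The call of each of C1qc, C2 and Cfb was lost without T1, T3 or T4. It was also lost without *mdx* replicate 4 for C1qc, without *mdx* replicate 2 or 3 for C2 and without *mdx* replicate 3 or 4 for Cfb, with adjusted p up to 0.0664, 0.0774 and 0.0626.

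C1qa differed by -0.75 (SE 0.25) and was not called (adjusted p = 0.0739). Its treated mice read 7.70, 9.12, 8.03 and 7.85, and T2 lay at the upper end of the *mdx* range. Without T2 the difference was -1.06 and was called (adjusted p = 0.00172), so that 6 of the 9 genes fell; the falls of C1qb, C1qc, C4b, C2 and Cfb were then 1.27, 1.26, 1.56, 0.78 and 0.79. C3ar1 differed by -0.24 (95% interval -0.68 to 0.20, adjusted p = 0.433), without T2 by -0.29 (adjusted p = 0.342) and without *mdx* replicate 2 by -0.02 (adjusted p = 0.933). C3 differed by -0.42 (95% interval -0.79 to -0.06, adjusted p = 0.111), and without T2 by -0.35 (adjusted p = 0.151).

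Against C57, the treated mice had more signal at the probe sets of C3ar1, Cfb and C1s, of which C1s had not been called in *mdx*. These 3 of 9 genes were higher at an adjusted p under 0.05, as were 15.6% of all probe sets, and at an unadjusted p under 0.01 with at least 1.5-fold 2 were, C3ar1 and C1s, as were 8.77%. C3ar1 was higher by 1.65 (SE 0.22, 3.15-fold, adjusted p = 0.000451), Cfb by 0.55 (SE 0.15, 1.47-fold, adjusted p = 0.0201) and C1s by 0.65 (SE 0.15, 1.56-fold, adjusted p = 0.0115). The Cfb call was lost without C57 replicate 1 or 2 (adjusted p up to 0.0706), and that of C1s without C57 replicate 2 or 3 (adjusted p up to 0.0562). By the methods' t-test both were lost (adjusted p = 0.12 and 0.0661).

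By this call of limma 0 of the 9 genes were lower (1, C3, at an unadjusted p under 0.05), and 8.96% of all probe sets were. The treated mice lay wholly above the C57 mice at 6 genes, the 3 C1q chains, C3ar1, Cfb and C1s, and wholly below them at C3, patterns that 17.9% and 14.1% of all probe sets showed. The means of the C1q chains were above those of C57 by 0.65, 0.45 and 0.43 for C1qa, C1qb and C1qc, with adjusted p of 0.102, 0.0983 and 0.194, and without T2 by 0.33, 0.26 and 0.16. C2 differed by 0.03 (95% interval -0.35 to 0.42, adjusted p = 0.906). C4b differed by -0.44 (adjusted p = 0.187), and without T2 by -0.68, which was called (adjusted p = 0.0103).

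How far each treated mouse lay from the *mdx* mean towards the C57 mean was expressed as restoration, the percentage of that distance covered, for the 7 genes that were higher in *mdx*. A value of 0% is the *mdx* mean and 100% the C57 mean, and since the *mdx* mice enter both differences, these values are descriptions without a test. The median over the 7 genes was 69.5% for the group mean (SD 32.2 over the medians of the 4 treated mice), and taken mouse by mouse 87.8% in T1, 18.9% in T2, 76.7% in T3 and 83.9% in T4. Without T2 it was 83.2%.

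The genes differed in restoration. C3ar1 was at 12.8%, with 23.9%, 5.93%, 13.8% and 7.52% in T1 to T4, and without *mdx* replicate 2 it was at 1.39%. The C1q chains were at 53.7%, 70.3% and 69.5% for C1qa, C1qb and C1qc, and without T2 at 76.3%, 83.2% and 88.9%. Cfb was at 53.9%, C2 at 95.4%, and C4b at 150%, that is, below the C57 mean, with 168%, 68.2%, 198% and 165% in T1 to T4. T2 had the lowest value of the 4 mice at each of the 7 genes.

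**Figure D3:**
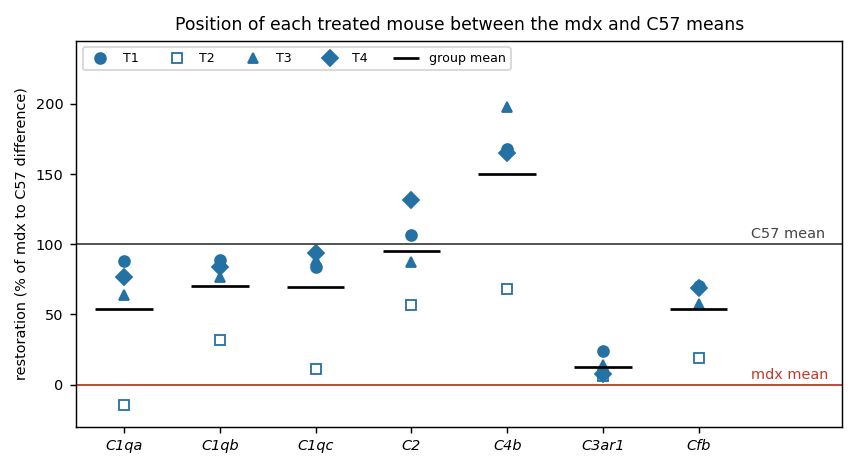
Restoration (vertical axis, percent of the distance from the *mdx* mean to the C57 mean) of the 7 genes raised in *mdx*, for each of the 4 treated mice (symbols) and the group mean (black lines). The lines at 0 and 100 mark the *mdx* and C57 means; T2, the open squares, is lowest at every gene, and all 4 mice lie near the *mdx* mean for C3ar1.

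Further genes of the system were read from a list of 44 that covers initiation, the alternative pathway, the terminal pathway, regulators and receptors. Of these, 22 had enough signal to be tested. In *mdx* against C57, 9 were higher and 1 lower, against 7.06% and 4.96% of all probe sets. In treated against *mdx* 6 fell (7 without T2), against 3.88% of all probe sets. In treated against C57 9 were higher and 3 lower, against 15.6% and 8.96% of all probe sets. In both comparisons with C57, the counts include Cd55, Itgam and Itgax (higher) and Colec11 (lower). These reached the minimum signal only in groups where they were high, so no conclusion is drawn from setting these counts against the shares. Whichever mouse was left out, 7 of the 10 calls in *mdx* against C57 were kept, 1 of the 6 in treated against *mdx*, that of Clu, and 8 of the 12 in treated against C57. The other 22 genes stayed below the minimum signal, among them 5 of the 7 genes of the terminal pathway; C7 and C8g, the terminal components with enough signal, were not called (adjusted p = 0.703 and 0.621 in *mdx* against C57).

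Among the genes of initiation, C1rb, which encodes a form of the protease C1r, was higher in *mdx* by 0.73 (adjusted p = 0.00375), but its probe set has cross-hybridisation class 3 in the deposited table, where the 9 genes have class 1, so related transcripts may share its probes. Colec11, a recognition lectin, was lower by 0.31 (adjusted p = 0.0487), a call lost without any single mouse but T2. It reached the minimum signal only in C57 (mean signal 35.5, against 28.6 in *mdx* and 28.5 in treated mice). Colec11 was thus tested only through the group where it was high. In the alternative pathway Cfp, or properdin, which stabilises the enzyme that factor B forms, was higher in *mdx* by 1.03 (adjusted p = 0.0183) and fell with treatment by 0.93 (adjusted p = 0.0294), with the first call lost without C57 replicate 1 or 2 or *mdx* replicate 2. Cfd, or adipsin, the protease that cleaves factor B and a product of fat cells, read 8.47, 7.90 and 7.76 in C57, 7.38, 9.19, 9.0 and 8.85 in *mdx* and 6.47, 7.90, 6.11 and 6.19 in treated mice. It was not called in *mdx* (difference 0.56, adjusted p = 0.523) and fell with treatment by 1.94 (adjusted p = 0.0224), T2 again being the treated mouse nearest to *mdx*.

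Of 8 regulators tested, the membrane proteins Cd55, which takes apart the C3-cleaving enzymes, and Cd59a, which blocks the terminal pore, were higher in *mdx* by 0.88 (adjusted p = 0.0138) and 1.26 (adjusted p = 0.000421), the call of Cd55 being lost without C57 replicate 2 or 3. Neither was called between treated and *mdx* mice (differences 0.15 and 0.14). Cd55 was below the minimum signal in C57 (mean signal 24.7, against 46.0 in *mdx* and 49.6 in treated mice), so it was tested only through the groups where it was high. Clu, or clusterin, a secreted inhibitor of the pore, read 8.98, 8.68 and 8.62 in C57, 8.61, 8.89, 8.92 and 8.92 in *mdx* and 8.02, 7.84, 7.96 and 7.91 in treated mice. All treated mice, T2 included, lay below all others, and Clu fell against *mdx* by 0.90 (adjusted p = 0.00234) without having been called in *mdx* (adjusted p = 0.763). Cd59b, the second mouse gene of the Cd59 kind, fell by 0.46 (adjusted p = 0.0387). When T1, T3 or T4 was left out, the falls of Cfd, Cfp, Cd59b, C5ar1 and C5ar2 lost their calls (adjusted p up to 0.067, 0.085, 0.102, 0.0653 and 0.0943 over all mice left out), as they did without *mdx* replicate 4.

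Against 7.06% of all probe sets, 5 of the 6 tested receptors other than C3ar1 were higher in *mdx*. They were C5ar1, the receptor for C5a, by 1.16 (adjusted p = 0.00293), the integrin chains Itgam, Itgax and Itgb2, which bind C3 fragments on myeloid cells, by 1.32, 2.02 and 1.56 (adjusted p = 0.00124, 0.00262 and 0.00125), and Cd93, a glycoprotein of endothelial and myeloid cells, by 0.77 (adjusted p = 0.00024). Itgam and Itgax were below the minimum signal in C57 (mean signal 28.4 and 22.2), so they were tested only through the groups where they were high. With treatment C5ar1 fell by 0.85 (adjusted p = 0.0207), reading 6.39, 6.93, 6.11 and 6.12 against 6.88 to 7.49 in *mdx*. C5ar2, named Gpr77 on the array, fell by 0.42 (adjusted p = 0.0376). Itgam, Itgax, Itgb2 and Cd93 were not called against *mdx* (differences -0.36, -0.44, -0.59 and 0.15) and all 4 were still higher than in C57 (adjusted p = 0.0057, 0.00736, 0.0124 and 9.43e-05). The 2 anaphylatoxin receptors that rose in *mdx*, C3ar1 and C5ar1, thus read -0.24 and -0.85 in treated minus *mdx*, and the difference between them was not tested.

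**Figure D4:**
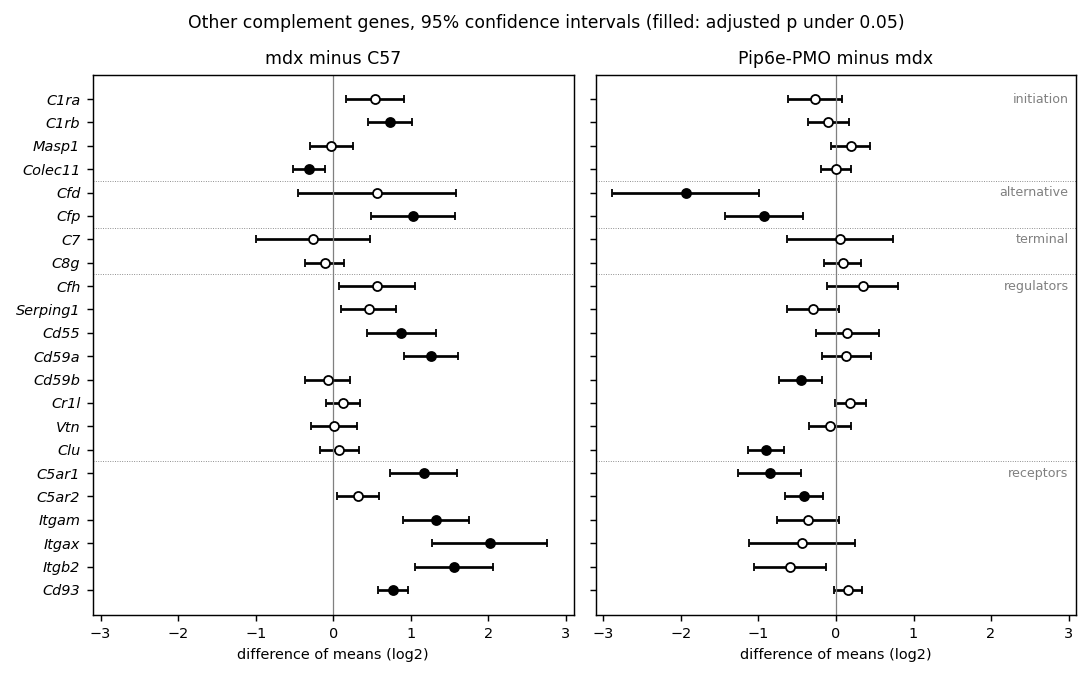
Differences of group means (log2, horizontal axes, with 95% confidence intervals) for the 22 other complement genes tested, grouped by role. Filled points have an adjusted p under 0.05. In *mdx* minus C57 10 are filled, 5 of them receptors, and 6 in treated minus *mdx*, all of them lower. Cd55, Itgam, Itgax and Colec11 were tested only through groups where they were high.

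In whole muscle, fewer cells of a type and less RNA per cell cannot be told apart, so the values of cell type markers are given beside these results. Of 12 macrophage markers, 10 were tested, with Cd163 and Aif1 below the minimum signal in every group. Mpeg1 and Fcgr1 were below it in C57 alone (mean signal 20.6 and 23.5), so they were tested only through the groups where they were high. In *mdx* against C57 8 of the 10 markers were higher, in treated against *mdx* 1 was higher, Mrc1, and 2 fell, Cd68 and Ctss, and in treated against C57 8 were higher. The signals of all 12 markers were also summed, and Lyz2 weighed most in the sum. The sum was 1048 to 1492 in the C57 mice, 2770 to 4303 in the *mdx* mice and 2366 to 2947 after treatment. Of 12 fibroblast markers, all tested, 6 were higher in *mdx*, 1 fell with treatment, and in treated against C57 8 were higher and 1 lower. Of all probe sets, 7.06% were higher in *mdx* and 3.88% fell with treatment, and in treated against C57 15.6% were higher and 8.96% lower. Of 8 neutrophil markers only Retnlg had enough signal. It was higher in *mdx* by 1.30 (adjusted p = 0.0178) and fell with treatment by 1.74 (adjusted p = 0.00925). Retnlg was tested only because it was high in *mdx*, so no conclusion is drawn from these calls. S100a8, S100a9 and Ly6g were below the minimum signal in every group. The part of any of these markers in the complement results was not tested.

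Relative to the C57 mean, the average of the 3 C1q chains was 1.18, 1.64, 1.37 and 1.59 in the *mdx* mice and 0.19, 1.30, 0.34 and 0.22 in T1 to T4. The average of the 10 macrophage markers was 1.00, 1.63, 1.24 and 1.33 in *mdx* and 0.96, 1.27, 1.06 and 1.06 in T1 to T4. The C1q average minus the macrophage average was therefore 0.01 to 0.26 in *mdx*, and in T1, T3 and T4 it was -0.77, -0.72 and -0.84, below all 3 C57 mice, whose values were -0.27 to 0.21. In T2 it was 0.03, within the *mdx* range. C3ar1 minus the macrophage average was 0.37 to 0.92 in *mdx* and 0.48 to 0.70 in all 4 treated mice. In T1, T3 and T4 the C1q average thus lay below the average of these macrophage markers. C3ar1 lay above that average in all treated and all *mdx* mice. The 10 markers moved in different ways, with treated minus *mdx* from -1.04 at Cd68 to 0.49 at Mrc1 and a median of -0.29. The C1q chains had -0.75, -1.08 and -0.98, so their distance from the average depends on which markers enter it.

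**Figure D5:**
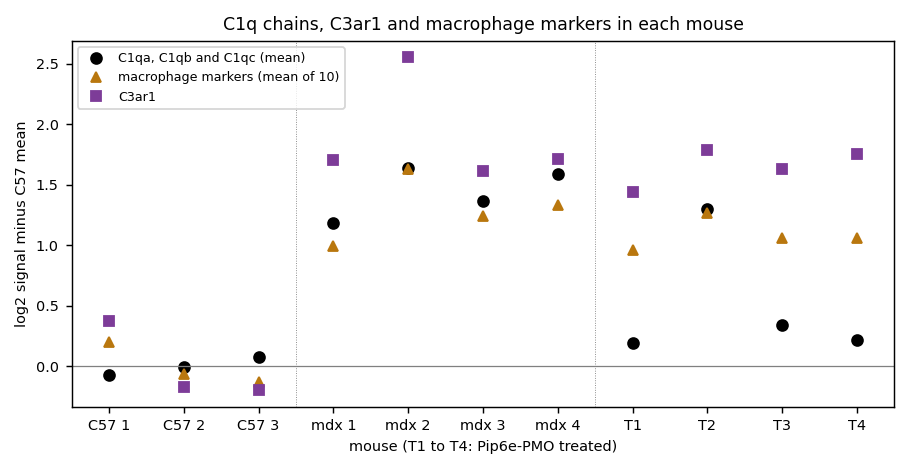
Log2 signal minus the C57 mean (vertical axis) in each of the 11 mice (horizontal axis) for the mean of C1qa, C1qb and C1qc (circles), the mean of 10 macrophage markers (triangles) and C3ar1 (squares). In T1, T3 and T4 the circles are at 0.19 to 0.34 and the triangles at 0.96 to 1.06, whereas in T2 both are near 1.3.

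The genes most like the C1q chains were taken as those with the smallest mean absolute difference from the C1q average, each value taken relative to its C57 mean, over the 8 *mdx* and treated mice and 11835 genes. They were Rac2, a small GTPase of blood cells (0.13), Pld4 (0.16), Tspo, a mitochondrial membrane protein (0.16), Spi1, listed under its older symbol Sfpi1, which encodes PU.1 (0.17), and Fcer1g, the shared signalling chain of Fc receptors (0.18). Rac2 read between 5.88 and 6.20 in the C57 mice, between 7.25 and 7.76 in the *mdx* mice and 6.20, 6.94, 6.52 and 6.31 in T1 to T4, and Spi1 read 5.91 to 6.08, 6.97 to 7.85 and 6.48, 7.18, 6.57 and 6.16. T2 was the highest treated mouse in each of these 5 genes, which follows from how they were chosen. Genes similar to C3 by the same measure included Irf2 (0.14), Gadd45gip1 (0.14), Ccdc86 (0.15) and Nprl2 (0.16), none of which was called between *mdx* and C57 or between treated and *mdx* mice.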

How the data were processed

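RNA of the TA of 11 mice was hybridised to Affymetrix Mouse Gene ST 1.1 arrays, 1 per mouse. The authors made the values with Affymetrix Expression Console by RMA and deposited them as linear intensities for 28350 probe sets, which were converted to log2 here. Their probe set positions name no genome build. RMA quantile normalization forces the arrays to a similar distribution, so a shift common to all genes cannot be seen. Replicates were not pooled.

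The 9 complement genes and the gene lists were chosen with earlier results of these data known. Where a gene had several probe sets, that of highest average signal was used. The minimum signal of 30, averaged within a group and reached by 1 group or more, left 14494 probe sets, which were fitted in R 4.3.3 with limma 3.58.1 (lmFit and eBayes, 1 mean per group, all 11 mice), giving two-sided p-values with Benjamini-Hochberg adjustment over all of them; a gene was called at an adjusted p under 0.05. The fit was tested on simulated data. The threshold of the paper's text, an unadjusted p under 0.01 and 1.5-fold, was counted as well. The text names all 9 genes, other complement genes called in *mdx* against C57 or treated against *mdx*, and the 5 genes nearest to the C1q average and to C3, of which 1 near C3 is not reported here. C7, C8g, Cd55, Cd59a and marker genes named beside them complete the role or marker lists. Alternatives were other tests, filters, normalizations and priors, the mouse number as a block, and each mouse left out. Figures were drawn with matplotlib in Python.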

Additional observations from a re-analysis of the deposited data

Results flagged for a closer look

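The *mdx* and the treated mice were checked at the 9 complement genes, the other complement genes called in *mdx* against C57 or treated against *mdx*, and the 5 genes each most like the C1q chains and C3. Of these 66 groups of 4 mice checked, 7 had a mouse whose gap to its nearest neighbour took up more of the group's range than Dixon's critical value at 95% allows; chance gives about 1 in 20 groups. For C1qc in treated mice the share was 0.872, with T2 high at 9.52 against 8.35 to 8.50. For C3ar1 in *mdx* mice it was 0.894, with replicate 2 high at 8.72 against 7.78 to 7.88. T2 was also the mouse apart at Cfp (0.864, high), Tspo (0.865, high) and Gadd45gip1 (0.84, low). Tspo and Gadd45gip1 were chosen for their likeness to the C1q chains and to C3 over these same mice. Their flags therefore cannot be set against the rate of 1 in 20. For Colec11 in *mdx* mice the share was 0.926, with replicate 3 low, and for Clu in *mdx* mice 0.903, with replicate 1 low.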

How the results depend on the processing

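Leaving out 1 mouse at a time, the number of the 9 complement genes called ranged from 5 to 8 in *mdx* against C57, from 2 to 6 in treated against *mdx* and from 1 to 4 in treated against C57; for the other complement genes the ranges were 7 to 11, 1 to 7 and 8 to 12, and median restoration ranged from 61.3% to 83.2%. By the methods' t-test with adjustment over all probe sets, 5 of the 9 genes were called in *mdx* against C57, 0 in treated against *mdx* (5 at an unadjusted p under 0.05, lowest adjusted p 0.0942, against 5 by limma) and 1 in treated against C57, and 3, 1 and 7 of the other complement genes were; at an unadjusted p under 0.01 with 1.5-fold it called 6, 4 and 2 of the 9. With array weights, 7 of the 9 were called in treated against C57 instead of 3. The added calls were C1qa and C1qb, which were higher, and C3 and C4b, which were lower. C3 was also called lower in treated against C57 with each array centred on its median. With only the compared groups in the fit, 3 other complement genes were called in treated against *mdx* instead of 6. With a minimum signal of 100, at which C2 was not tested, 6 other complement genes were called in *mdx* against C57 instead of 10 and 7 in treated against C57 instead of 12. The mouse number used as a replicate block left 7, 5 and 3 of the 9 genes called and took the other complement genes in treated against *mdx* from 6 to 3; same-numbered mice deviated together with correlations of -0.30 to 0.15, so the numbers did not pair them. The difference of C2 between treated and C57 mice, 0.03, changed sign with each array centred on its median (-0.013), with quantile normalization repeated (-0.076), without C57 replicate 2 (-0.14) and without T2 (-0.06), with a range of -0.14 to 0.16 over single mice left out, and that of C3 between *mdx* and C57, -0.08, without C57 replicate 1 (0.08) and without *mdx* replicate 1 (0.04), with a range of -0.19 to 0.08. The causes were not tested.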
